A study of Homo sapiens with 10 samples.

Results

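The comparison described here set ORC1B14, an HCT116 line with mutated ORC1, against wild-type HCT116 (WT) in gene expression measured on Affymetrix arrays. It used the 2 arrays titled ORC1B14 and the 2 arrays titled WT, which are 4 of the 10 arrays of the study, and all 10797 genes that were named and above a filter on dim probe sets. HCT116 is an established human colorectal carcinoma line, and per the labels all cells were untreated and were grown in a standard incubator. The labels call ORC1B14 an ORC1 mutant line but do not say what kind of mutation it carries or how it was made, and it is a single line. The other 6 arrays came from another ORC1 mutant line (ORC1BP32) and from a pair of ORC2 mutant lines (ORC2B2 and ORC2BP8), with 2 arrays each. They entered the filter, the choice of the probe set that stands for a gene, the estimate of the spread and a side comparison. For some genes their differences from WT are given beside those of ORC1B14. Arrays are titled as biological replicates 1 and 2, but no label ties them to different cultures or RNA preparations, so the p-values reflect the spread of these particular samples and that spread may be technical.

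ORC1 is a subunit of the origin recognition complex, the protein machine that marks the sites where DNA replication can start. In the first gap phase of the cell cycle the complex works with CDC6 and CDT1 to load the MCM helicase onto DNA, a step called licensing, and the helicase is later switched on to open the replication forks. Many genes of licensing and of the fork are transcribed under the control of E2F factors, whose activity rises as cells enter S phase. The ORC genes, ORC1 to ORC6, were not named on the array (0 of 6), so the mutated gene itself and its partners are not analysed here.

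The labelled cell type was checked against its markers. Of 11 named markers of colorectal carcinoma epithelium, 10 lay above the array median on all 4 arrays, among them the epithelial adhesion molecule EPCAM, with 10.05 and 9.91 in ORC1B14 and 10.26 and 10.17 in WT, and the intestinal homeobox factor CDX2, with 5.70 and 5.46 in ORC1B14 and 5.40 and 5.31 in WT. Values are on the log2 scale throughout, with replicate 1 before replicate 2, so that a difference of 1 is a 2-fold change, and the array median is taken over all its probe sets. CEACAM6 was the exception, below the array median on all 4 arrays. The fibroblast markers DCN and LUM, the blood markers CD14 and LYZ, the liver markers ALB, AFP and FGB, the kidney marker WT1 and the lung and breast markers NKX2-1, ESR1 and PGR lay below the array median on all 4 arrays. Some markers of other cell types lay above it on all 4 arrays: THY1 for fibroblasts, SPI1 and NKG7 for blood, APOA1, APOA2, TTR, PAX2 and PAX8 for liver and kidney, and SFTPB, SFTPC and GATA3 for lung and breast. Their levels ran from 3.95 to 6.20 in ORC1B14 and from 4.05 to 5.89 in WT, and none of them was called. The intestinal markers CDX1, CDX2 and VIL1 did not exceed the upper ends of these ranges. For them, lying above the array median does not set the cell type apart. Array medians were 3.95 and 3.89 in ORC1B14, against 3.96 and 3.87 in WT. Arrays give no read depth, and their number limits the precision.

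The question was which genes differ between the ORC1 mutant line and its wild-type counterpart. In ORC1B14, 63 of the 10797 genes passed an adjusted p of 0.05 in limma and are called here, 20 of them higher and 43 lower. That is 0.583% of the genes tested, with 0.185% higher and 0.398% lower. These counts hold for a model in which the replicate numbers were not treated as pairs, since no label links them. With the replicate number as a block in the model, 225 genes were called higher and 271 lower. At an unadjusted p under 0.05 there were 1831 genes, 880 higher and 951 lower. The median difference over all genes was 0.04. In all 63 called genes the ORC1B14 arrays lay wholly above or below the WT arrays, and 57 changed at least 2-fold. By the same measure, both ORC1B14 arrays were above both WT arrays in 27.3% of all genes tested, and below them in 20.2%. The count of calls rested on single arrays: it was 1 without ORC1B14 replicate 1 and 77 without ORC1B14 replicate 2. Leaving out a WT array gave 9 calls (replicate 1) or 4 calls (replicate 2), leaving out either array of ORC1BP32 gave 22, and leaving out either array of ORC2B2 gave 36. DSC3 was the 1 gene that was called without each of the 10 arrays in turn, and the other 62 calls were lost without ORC1B14 replicate 1. With all 10 arrays, standard errors of the called differences ran from 0.16 to 0.48.

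**Figure D1:**
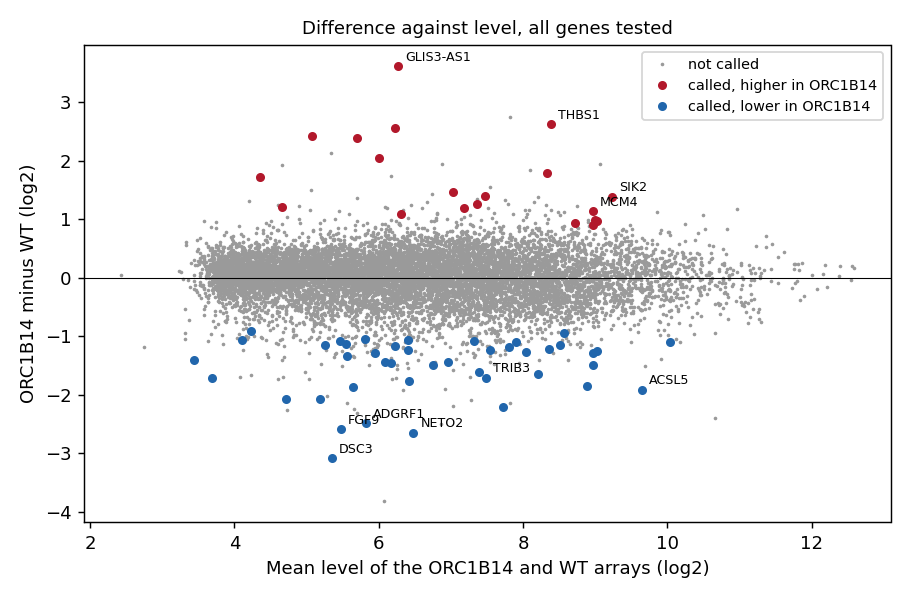
Each point is 1 of the 10797 genes tested, with its mean level over the 2 ORC1B14 and 2 WT arrays (log2) on the horizontal axis and the difference ORC1B14 minus WT (log2) on the vertical axis. The 20 genes called higher (red) and the 43 called lower (blue) lie at low and high levels alike, and the extreme point near the bottom that is not called is ANGPT2, at -3.81.

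Among the genes called higher, 2 of the 3 largest rises came from a single locus. GLIS3-AS1, a long noncoding RNA transcribed from the strand opposite to GLIS3, gave 7.96 and 8.19 in ORC1B14, against 3.72 and 5.20 in WT. The ORC1B14 arrays were close together, the WT arrays were far apart, and WT replicate 1 lay below its array median. The gene rose by 3.62 ± 0.45 (SE, adjusted p = 0.0225), a 12.3-fold change. GLIS3 itself, a zinc finger transcription factor needed for pancreatic beta cells and the thyroid, gave 7.46 and 7.56 in ORC1B14, against 4.81 and 5.09 in WT, and rose by 2.56 ± 0.48 (adjusted p = 0.0464). A second probe set named GLIS3 differed by 0.21 only, so the probe sets of this gene disagree. With the mean over its probe sets, GLIS3 differed by 1.39 and was not called (adjusted p = 0.0853), and its call was also lost under median centring, with no filter on dim probe sets and without the intensity trend. GLIS3-AS1 lies within GLIS3, and since the strand the probes read is not stated in the sources used here, signal from the antisense RNA and from its host gene cannot be told apart.

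Of the other large rises, 3 were in genes of secreted proteins. THBS1, which encodes thrombospondin 1, a matrix glycoprotein that can activate latent TGF-beta, gave 10.13 and 9.27 in ORC1B14, against 6.75 and 7.40 in WT. It rose 6.17-fold, by 2.63 ± 0.40 (adjusted p = 0.0277). EDN1, the precursor of the vasoconstrictor endothelin 1, gave 7.13 and 6.64 in ORC1B14, against 4.29 and 4.71 in WT, a rise of 2.39 ± 0.42 (adjusted p = 0.0418). KLK10, a secreted serine protease of the kallikrein family, gave 7.67 and 7.87 in ORC1B14, against 6.26 and 6.33 in WT, a rise of 1.47 ± 0.21 (adjusted p = 0.0225). In each of the 3 genes both ORC1B14 arrays exceeded both WT arrays by more than the arrays of either line differed from each other.

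EHF, KRT80 and PLK2 were also among the larger rises. EHF, an ETS-family transcription factor of epithelia, gave 6.38 and 6.21 in ORC1B14, against 3.76 and 3.97 in WT, and rose by 2.43 ± 0.45 (adjusted p = 0.0464). WT replicate 1 lay below its array median for EHF, so the size of this rise is uncertain. KRT80, a keratin of the epithelial cytoskeleton, gave 7.41 and 6.65 in ORC1B14, against 4.91 and 5.03 in WT, and rose by 2.06 ± 0.36 (adjusted p = 0.0397). PLK2, a polo-like kinase that acts in centriole duplication and is induced by p53, gave 9.23 and 9.24 in ORC1B14, against 7.26 and 7.63 in WT, and rose by 1.79 ± 0.30 (adjusted p = 0.0395). The ORC1B14 arrays agreed almost exactly for PLK2 and were further apart for KRT80, and none of the 3 genes had overlapping lines. With no filter on dim probe sets the calls of all 3 genes were lost. That of EHF was also lost under median centring and without the intensity trend.

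The 4 remaining genes among the 12 largest rises were enzymes. AOAH, which removes acyl chains from bacterial lipopolysaccharide, gave 5.004 and 5.44 in ORC1B14, against 3.64 and 3.35 in WT, a rise of 1.73 ± 0.24 (adjusted p = 0.0225). Both WT arrays were below their array medians for this gene, so the size of its rise is uncertain. DHRS3, a dehydrogenase that reduces retinaldehyde to retinol, gave 8.21 and 8.12 in ORC1B14, against 7.02 and 6.53 in WT, a rise of 1.39 (adjusted p = 0.0225). SIK2, a salt-inducible kinase, gave 9.93 and 9.92 in ORC1B14, against 8.42 and 8.65 in WT, a rise of 1.39 (adjusted p = 0.0225). GSTT2, a glutathione transferase gene that RefSeq lists as a transcribed pseudogene, rose by 1.26 (adjusted p = 0.0397), but it has a near-identical copy whose signal the array could share. The other 8 genes called higher rose by 0.91 to 1.21: the prostaglandin receptor PTGER4, the endocytic adaptor SH3BP4, the helicase subunit MCM4, the endoplasmic reticulum protein SDF2L1, the stress ligands MICA and MICB, MEA1, and the spindle protein SPAG5. MICA and MICB are near-identical in part, and 7 probe sets name MICB and 1 names MICA, so their separate values (0.95 and 0.999) are uncertain.

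Among the genes called lower, the largest fall was in a cell adhesion gene. DSC3, which encodes desmocollin 3, a cadherin of desmosomes, gave 3.80 and 3.81 in ORC1B14, against 6.64 and 7.14 in WT. Both ORC1B14 arrays sat below their array medians, so the size of the fall is uncertain. The fall was 8.49-fold, a difference of -3.09 ± 0.24 (adjusted p = 0.00083), and this was the smallest adjusted p of all genes. Leaving out each array in turn gave adjusted p-values of at most 0.0193 for DSC3. PCDH7, a protocadherin, gave 3.64 and 3.72 in ORC1B14, against 5.60 and 5.91 in WT, a difference of -2.08 ± 0.28 (adjusted p = 0.0225). Its ORC1B14 values were also below the array medians.

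A further 5 of the 12 largest falls were in genes of receptors, ligands and other surface or secreted proteins. FGF9, a fibroblast growth factor, gave 4.15 and 4.21 in ORC1B14, against 6.71 and 6.83 in WT, a difference of -2.59 ± 0.37 (adjusted p = 0.0225). NETO2, an auxiliary subunit of kainate receptors, gave 4.38 and 5.93 in ORC1B14, against 7.65 and 7.96 in WT, a difference of -2.65 ± 0.43 (adjusted p = 0.035). ADGRF1, an adhesion G protein-coupled receptor, gave 4.23 and 4.93 in ORC1B14, against 7.36 and 6.76 in WT, a difference of -2.48 ± 0.30 (adjusted p = 0.0225). FGF9 was nearly equal on the arrays of each line, whereas the ORC1B14 arrays lay well apart for NETO2. SCG2, the precursor of secretogranin II, gave 3.44 and 4.87 in ORC1B14, against 6.11 and 6.32 in WT, a difference of -2.06 ± 0.38 (adjusted p = 0.0464). TFPI, an inhibitor of the tissue factor pathway of coagulation, gave 4.80 and 4.63 in ORC1B14, against 6.32 and 6.85 in WT, a difference of -1.87 ± 0.31 (adjusted p = 0.0384). The ORC1B14 arrays of SCG2 were far apart, with replicate 1 below its array median, and those of TFPI were close together.

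S100A14, a calcium-binding protein of epithelia, gave 6.93 and 6.32 in ORC1B14, against 9.22 and 8.44 in WT, a difference of -2.21 ± 0.42 (adjusted p = 0.0465). Its call was lost under quantile normalization, median centring, no filter on dim probe sets and no intensity trend, with an adjusted p of at most 0.0577. ACSL5, which activates long-chain fatty acids and is abundant in the intestine, gave 8.64 and 8.74 in ORC1B14, against 10.83 and 10.37 in WT, a difference of -1.91 ± 0.27 (adjusted p = 0.0225). SLFN5, a Schlafen family protein induced by interferon, gave 7.86 and 8.07 in ORC1B14, against 9.64 and 9.99 in WT, a difference of -1.85 ± 0.27 (adjusted p = 0.0225). These 3 genes were well expressed in both lines and their lines did not overlap. LURAP1L differed by -1.77 (adjusted p = 0.0465), with WT arrays at 6.73 and 7.88, and ANKRD22 by -1.70 (adjusted p = 0.0225), with ORC1B14 arrays at 2.83 and 2.85, below the array medians. Every mutant array lay below its median for ANKRD22, so this gene passed the filter on dim probe sets through the WT arrays only. The call of ANKRD22 was kept with no such filter, but the size of its fall is uncertain. In all, 6 called genes lay below both array medians in ORC1B14. The lowest difference of any gene tested, chosen for mention after its value was seen, was not called: ANGPT2, an angiopoietin, gave 3.69 and 4.64 in ORC1B14, against 7.97 and 7.97 in WT, a difference of -3.81 ± 0.74 (adjusted p = 0.0533).

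**Figure D2:**
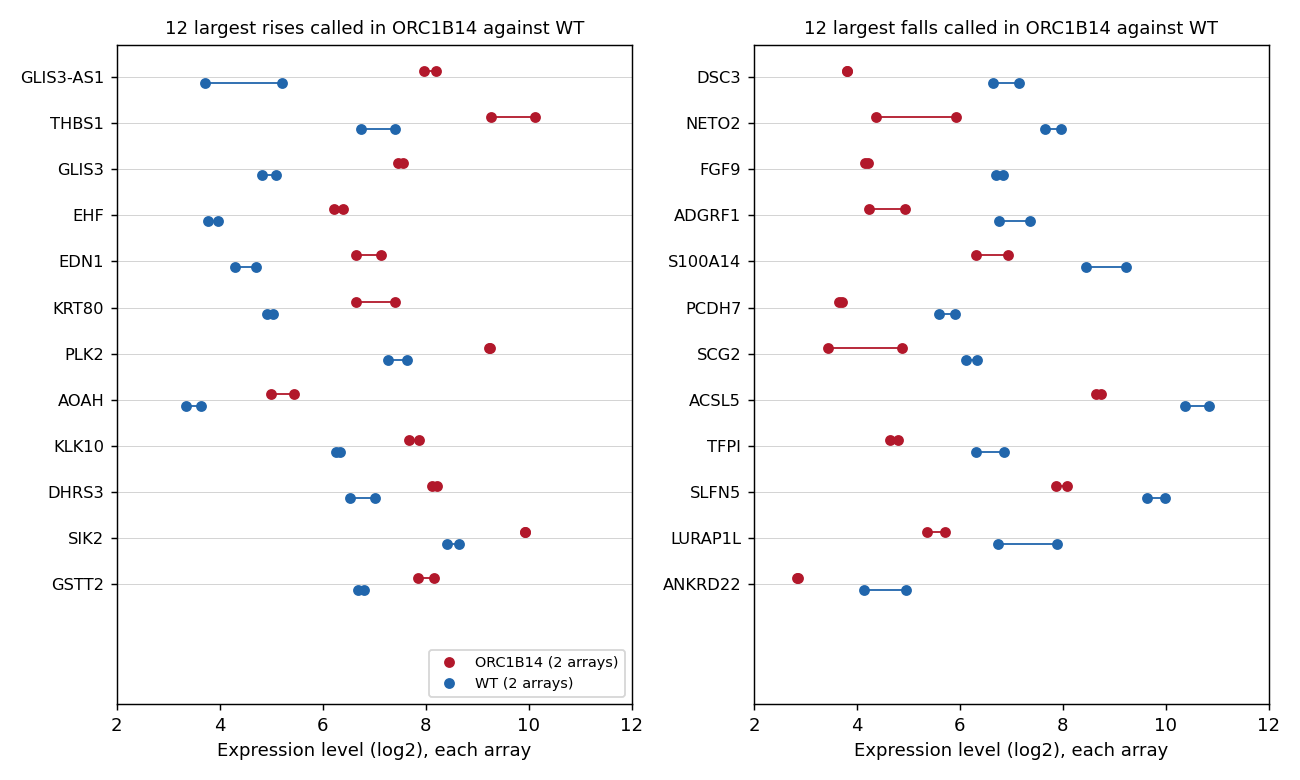
Levels on each array (log2, horizontal axis) of the 12 largest called rises (left) and falls (right), with the 2 ORC1B14 arrays in red above the 2 WT arrays in blue and a line joining the arrays of a group. No gene shows overlap between the lines, and the arrays of 1 group lie furthest apart for NETO2 and SCG2 in ORC1B14 and for GLIS3-AS1 in WT.

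The other 31 genes called lower differed by -1.70 to -0.90. They include TRIB3, a pseudokinase induced by the ATF4 pathway, at 6.60 and 6.67 in ORC1B14 and 8.28 and 8.40 in WT, a difference of -1.70 (adjusted p = 0.0225). GRHL2, a transcription factor that maintains epithelial identity, gave 6.22 and 5.80 in ORC1B14, against 7.74 and 7.27 in WT, a difference of -1.49 (adjusted p = 0.0384). PEG10, an imprinted gene derived from a retrotransposon, gave 5.28 and 5.35 in ORC1B14, against 6.54 and 6.65 in WT, a difference of -1.28 (adjusted p = 0.0225). The receptors ADGRG6, ANTXR2 and IL20RB, the signalling protease MALT1, the nuclear membrane protein SUN1, the GTPase-activating protein ARHGAP29 and the transcription factors FOXP1 and ZNF516 were also in this group.

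Of the 63 called genes, 2 are microRNA genes, out of 439 microRNA genes tested, beside 0.583% called over all genes. These counts do not set microRNA genes apart as a class. Their mature products are shown because the probe sets carry their names. The sequences are RefSeq's on GRCh38.p14, 5′ to 3′, with the seed (bases 2 to 8), which pairs with target messages, in capitals.
hsa-miR-1237-5p, chr11:64368651-64368671, plus strand: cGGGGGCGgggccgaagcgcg
hsa-miR-1237-3p, chr11:64368683-64368703, plus strand: uCCUUCUGcuccgucccccag
hsa-miR-616-3p, chr12:57519183-57519204, minus strand: aGUCAUUGgaggguuugagcag
hsa-miR-616-5p, chr12:57519223-57519244, minus strand: aCUCAAAAcccuucagugacuu
No seed is shared between them. The probe set named MIR616 gave 2.55 and 2.93 in ORC1B14, against 4.07 and 4.24 in WT, a difference of -1.41 ± 0.21 (adjusted p = 0.0274). The probe set named MIR1237 gave 3.74 and 3.81 in ORC1B14, against 4.61 and 4.74 in WT, a difference of -0.90 ± 0.16 (adjusted p = 0.0464). Both are lower in ORC1B14, where both arrays lay below their medians. For MIR616 every mutant array lay below its median, so it passed the filter on dim probe sets through the WT arrays only. Its call was kept with no such filter, but the size of its fall is uncertain. The call of MIR1237 was lost with no such filter, under median centring and without the intensity trend. MIR616 lies within DDIT3, a transcription factor gene of the unfolded protein response, and DDIT3 gave 5.67 and 5.44 in ORC1B14, against 6.56 and 6.76 in WT, a difference of -1.11 (adjusted p = 0.0866, not called). MIR1237 lies within RPS6KA4. Total RNA was labelled, so a host transcript and a microRNA cannot be told apart on these probe sets.

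Genes of replication licensing were examined next, since licensing is the step in which ORC1 acts. MCM4, a subunit of the MCM helicase, gave 9.35 and 9.72 in ORC1B14, against 8.47 and 8.32 in WT, and rose by 1.14 ± 0.19 (adjusted p = 0.0384). Of 14 tested genes of licensing and the MCM helicase it was the only one called, against 0.583% of all genes. The median difference of the list was 0.65, beside 0.04 for all genes, and 9 members had both ORC1B14 arrays above both WT arrays while 0 had them below, here named separated upward and downward, beside 27.3% and 20.2% of all genes. MCM2, at 8.51 and 8.71 in ORC1B14 and 7.17 and 7.71 in WT, differed by 1.17 (adjusted p = 0.087). The licensing factor CDC6, at 9.08 and 9.30 in ORC1B14 and 8.16 and 8.47 in WT, differed by 0.88 (adjusted p = 0.0619). The factor CDT1, at 8.61 and 8.60 in ORC1B14 and 7.68 and 7.82 in WT, differed by 0.85 (adjusted p = 0.106). At the other end of the list, the kinase CDC7 differed by -0.18 and the MCM family members MCM8 and MCM9 by -0.09 and -0.08.

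Genes of the replication fork had the same median difference, 0.65 over 16 tested members, with 0 called, 11 separated upward and 0 downward. For this list and the next, the shares over all genes were 0.583% called, 27.3% separated upward and 20.2% downward. GINS2, a subunit of the complex that completes the active helicase, gave 8.22 and 8.41 in ORC1B14, against 6.32 and 7.21 in WT, a difference of 1.55 ± 0.38 (adjusted p = 0.0974). RECQL4, a helicase of replication initiation, gave 7.39 and 7.24 in ORC1B14, against 6.49 and 6.08 in WT, a difference of 1.03 ± 0.20 (adjusted p = 0.0559). Neither passed the threshold, and the WT arrays of GINS2 were farther apart than those of RECQL4. In 23 genes of G1/S cyclins, E2F factors and nucleotide synthesis the median was 0.50, with 0 called, 13 separated upward and 1 downward. E2F1 gave 7.46 and 7.26 in ORC1B14, against 6.06 and 6.45 in WT, a difference of 1.11 ± 0.21 (adjusted p = 0.0521). CDC25A, the phosphatase that activates the kinases of S phase entry, gave 7.37 and 7.71 in ORC1B14, against 6.60 and 6.67 in WT, a difference of 0.91 ± 0.24 (adjusted p = 0.115). RBL2, a pocket protein that represses E2F targets, lay on the opposite side, at -0.61 (adjusted p = 0.171).

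Promoters of 4 of these genes are shown because each holds an 8-base form of the E2F consensus. They were chosen with their values known, and have the largest differences among the members of the 3 lists with such a match. They are the 150 bases before the start in RefSeq's GRCh38.p14 annotation, on the strand of the gene, with the match in capitals.
E2F1, chr20:33686386-33686535, minus strand: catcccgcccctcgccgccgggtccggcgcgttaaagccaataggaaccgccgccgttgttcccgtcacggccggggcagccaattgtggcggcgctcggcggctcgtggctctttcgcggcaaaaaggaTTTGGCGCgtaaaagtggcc
CDC25A, chr3:48188418-48188567, minus strand: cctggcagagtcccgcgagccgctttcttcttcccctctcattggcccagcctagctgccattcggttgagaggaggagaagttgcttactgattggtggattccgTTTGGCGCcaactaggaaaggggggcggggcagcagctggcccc
GINS2, chr16:85688955-85689104, minus strand: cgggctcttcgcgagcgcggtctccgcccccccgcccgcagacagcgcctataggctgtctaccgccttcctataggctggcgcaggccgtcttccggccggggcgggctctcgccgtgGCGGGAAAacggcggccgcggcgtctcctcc
CDT1, chr16:88803639-88803788, plus strand: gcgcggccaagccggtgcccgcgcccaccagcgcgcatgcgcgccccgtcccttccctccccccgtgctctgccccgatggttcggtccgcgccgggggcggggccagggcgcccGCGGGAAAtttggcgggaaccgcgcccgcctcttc
The motifs searched were TTTGGCGC and TTTCCCGC, on both strands, in the 250 bases before each start, and a window with overlapping matches was counted once. Of all 35116 promoter windows, 0.55% held TTTGGCGC, 1.39% held TTTCCCGC and 1.93% held either, and 2.78% of the windows of the genes tested held either. In the licensing list 6 of the 12 genes with a window held either motif, in the fork list 3 of 13, and in the G1/S list 9 of 18. The mitosis list had 2 of 20. Counted in the same way by gene, either motif was held by 2.36% of all genes with a window and 3.72% of the tested genes. Members of these lists with a match ran from -0.18 in CDC7 to 1.55 in GINS2, and RBL1 (-0.15), DUT (-0.07) and TIPIN (0.06) also lay near or below 0. These matches describe the letters in the windows and do not show binding by a factor.

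Among 24 tested genes of mitosis 0 were called, the median was 0.40, and 13 were separated upward and 0 downward. Over all genes 0.583% were called, 27.3% were separated upward and 20.2% downward. BIRC5, the survivin subunit of the chromosomal passenger complex, gave 9.09 and 9.01 in ORC1B14, against 7.82 and 8.14 in WT, a difference of 1.07 (adjusted p = 0.0566). FOXM1, a transcription factor of mitotic genes, gave 9.25 and 9.13 in ORC1B14, against 8.21 and 8.46 in WT, a difference of 0.85 (adjusted p = 0.0619). The proliferation markers MKI67 and TOP2A differed by 0.05 and -0.02. The 18 genes of the ATR and ATM checkpoint and of homologous recombination had a median of 0.01. Within replicate 1 the median was -0.33 and within replicate 2 it was 0.21, so the replicates differed in sign. RAD17, which loads the checkpoint clamp, was their 1 called member, and fell to 7.13 and 7.69 in ORC1B14, against 8.55 and 8.78 in WT, a difference of -1.26 ± 0.21 (adjusted p = 0.0384). RAD17 lies in the chromosome 5 stretch described below. XRCC3, a protein of homologous recombination, differed by 0.61 (adjusted p = 0.172). Of 13 p53 targets, PLK2 was the 1 called, and the median was 0.01. BAX, a promoter of apoptosis, gave 6.62 and 6.53 in ORC1B14, against 5.71 and 5.67 in WT, a difference of 0.89 (adjusted p = 0.0886).

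**Figure D3:**
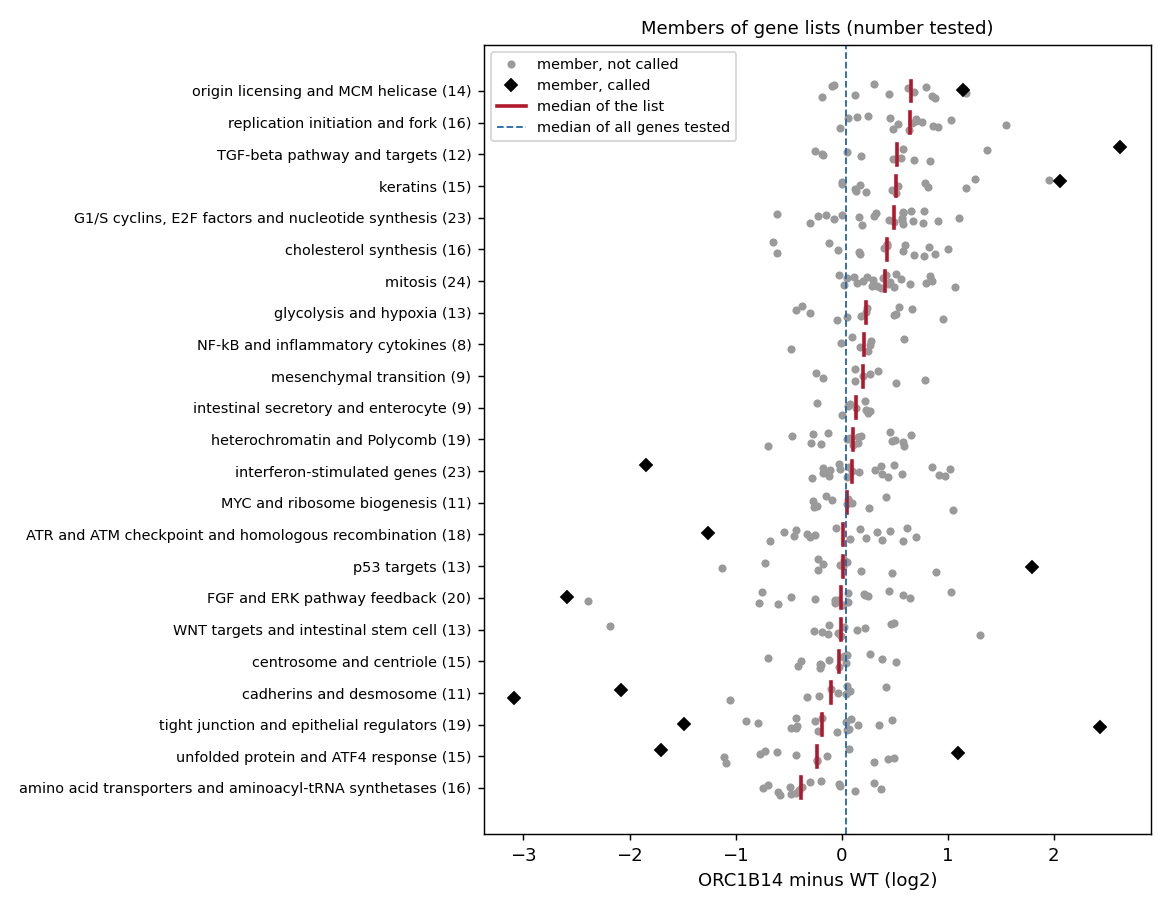
Each point is 1 tested member of a gene list at its difference ORC1B14 minus WT (log2, horizontal axis), with called members as black diamonds, the median of each list in red and the median of all genes tested, 0.04, as a dashed line. The lists of licensing and of the fork have the highest medians, both 0.65, and the list of amino acid transporters and aminoacyl-tRNA synthetases the lowest, -0.39.

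Stress and metabolic lists had medians from -0.39 to 0.43. The 15 tested genes of the unfolded protein and ATF4 response had a median of -0.24, with TRIB3 called lower, SDF2L1 called higher, 3 members separated upward and 7 downward, beside 0.583% called, 27.3% separated upward and 20.2% downward over all genes. SDF2L1, which works with chaperones in the endoplasmic reticulum, gave 6.81 and 6.92 in ORC1B14, against 5.74 and 5.79 in WT, a rise of 1.09 ± 0.19 (adjusted p = 0.0407). The 16 tested genes of amino acid transporters and aminoacyl-tRNA synthetases had a median of -0.39, with 0 called, 2 separated upward and 9 downward. GARS1, the glycyl-tRNA synthetase, gave 9.97 and 10.26 in ORC1B14, against 10.70 and 10.73 in WT, a difference of -0.60 (adjusted p = 0.108). SARS1, the seryl-tRNA synthetase, gave 8.40 and 8.43 in ORC1B14, against 8.98 and 9.22 in WT, a difference of -0.69 (adjusted p = 0.115). The 16 tested members of this list are all synthetases. Cholesterol synthesis, with 16 genes tested, had a median of 0.43, with 0 called, 10 separated upward and 3 downward. NSDHL, a sterol dehydrogenase, differed by 0.82 (adjusted p = 0.0795) and DHCR7, which makes cholesterol from its last precursor, by 0.78 (adjusted p = 0.0893). Glycolysis and hypoxia had a median of 0.23 over 13 genes, with 0 called, and its lowest unadjusted p-values were those of BNIP3 (0.96, adjusted p = 0.137) and GPI (0.49, adjusted p = 0.187). MYC and ribosome biogenesis had a median of 0.05 over 11 genes, with 0 called, and BOP1 differed by 1.05 (adjusted p = 0.102).

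Lists of epithelial structure held calls in both directions, beside 0.583% called, 27.3% separated upward and 20.2% downward over all genes. Of 15 tested keratin genes KRT80 was the 1 called, the median was 0.51, and 9 were separated upward and 0 downward. KRT18, a keratin of simple epithelia, gave 11.88 and 11.23 in ORC1B14, against 10.57 and 10.18 in WT, a difference of 1.17 (adjusted p = 0.0566). KRT18 has 2 kept probe sets, and only the values of the one with the higher mean are given. Its partner KRT8 gave 6.56 and 5.97 in ORC1B14, against 6.52 and 5.998 in WT, a difference of 0.00 (adjusted p = 0.997). Of 11 tested cadherin and desmosome genes, DSC3 and PCDH7 were called lower, the median was -0.10, and 1 was separated upward and 4 downward. The closely related desmocollin DSC2 gave 8.40 and 8.70 in ORC1B14, against 9.69 and 9.51 in WT, a difference of -1.05 (adjusted p = 0.0933). The desmosomal plaque genes DSP and JUP differed by -0.21 and 0.04. Of 19 tested genes of tight junctions and epithelial regulators, EHF was called higher and GRHL2 lower, and the median was -0.19. OCLN, which encodes occludin, gave 8.21 and 8.12 in ORC1B14, against 9.17 and 8.96 in WT, a difference of -0.90 (adjusted p = 0.1). OCLN lies in the chromosome 5 stretch described below, where 40 of 45 tested genes were lower in ORC1B14. Mesenchymal genes had a median of 0.21 over 9 tested, with 0 called, and MMP14, a membrane-bound matrix protease, differed by 0.78 (adjusted p = 0.134), and VIM, which encodes vimentin, by 0.35 (adjusted p = 0.451). Genes of intestinal differentiation had a median of 0.13 over 9 tested, with 0 called.

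Each signalling list held 0 or 1 call. Over all genes 0.583% were called, 27.3% were separated upward and 20.2% downward. In the TGF-beta list, with 12 genes tested, THBS1 was called higher, the median was 0.52, and 8 were separated upward and 1 downward. SMAD6, an inhibitor of the pathway, gave 6.37 and 6.39 in ORC1B14, against 4.97 and 5.05 in WT, a difference of 1.37 ± 0.29 (adjusted p = 0.0701). In the list of FGF and ERK pathway feedback, with 20 genes tested, FGF9 was called lower and the median was -0.01. EREG, a ligand of the EGF receptor, gave 9.31 and 9.62 in ORC1B14, against 11.91 and 11.79 in WT, a difference of -2.39 ± 0.48 (adjusted p = 0.0619). Of 13 WNT targets and intestinal stem cell genes 0 were called, and the median was -0.01. AXIN2, a feedback inhibitor of WNT signalling, gave 7.11 and 7.52 in ORC1B14, against 6.05 and 5.99 in WT, a difference of 1.30 ± 0.28 (adjusted p = 0.0702). RNF43, a ubiquitin ligase that removes WNT receptors, gave 5.07 and 6.80 in ORC1B14, against 9.03 and 7.21 in WT, a difference of -2.19 ± 0.63 (adjusted p = 0.131). The arrays of each line were far apart for RNF43. Of 23 interferon-stimulated genes, SLFN5 was called lower and the median was 0.09. ISG15, a ubiquitin-like protein of that response, differed by 1.02 ± 0.41 (adjusted p = 0.245), opposite in sign to SLFN5. The difference of ISG15 was 1.74 within replicate 1 and 0.31 within replicate 2, and the median of the interferon list was 0.52 within replicate 1 and -0.11 within replicate 2. In the NF-kB list, with 8 tested and a median of 0.21, 0 were called, and RELB, a subunit of NF-kB, differed by 0.59 (adjusted p = 0.339) and ICAM1, an adhesion receptor, by -0.48 (adjusted p = 0.463).

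The lists of nuclear structure had medians near that of all genes. Heterochromatin and Polycomb genes had a median of 0.10 over 19 tested, with 0 called, beside 0.583% of all genes. DNMT1, the maintenance DNA methyltransferase, gave 10.01 and 10.16 in ORC1B14, against 9.52 and 9.64 in WT, a difference of 0.50 (adjusted p = 0.134), and BAHD1, a heterochromatin protein, differed by 0.59 (adjusted p = 0.204). Centrosome and centriole genes had a median of -0.02 over 15 tested, with 0 called. PCM1, a protein of centriolar satellites, differed by -0.69 (adjusted p = 0.214), and CEP55, a protein of the midbody, by 0.51 (adjusted p = 0.235). Of 18 replication-dependent histone genes 0 were named on the array, and they are not analysed here.

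Of the 43 genes called lower, 6 lie in 1 stretch of the long arm of chromosome 5, from MOCS2 to FCHO2 in the gene order of the RefSeq table (GRCh38.p14). The bounds of this stretch were chosen from earlier results of these data, so the values that follow are a description. Of 65 named genes there, 45 were tested, 40 were lower in ORC1B14 than in WT, and the median difference was -0.92. Over all genes tested 0.398% were called lower. In 34 of them (75.6%) both ORC1B14 arrays lay below both WT arrays, beside 20.2% of all genes. The 413 tested genes of chromosome 5 outside the stretch had a median of -0.02, and medians of whole chromosomes ran from -0.18 (chromosome 13) to 0.18 (chromosome 19). The difference was larger on replicate 1 of ORC1B14, with a median of -1.09 against WT replicate 1, than on replicate 2, with -0.67 against WT replicate 2.

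The 6 genes called lower in the stretch include enzymes, a scaffold protein and regulators of transcription and of the checkpoint. ELOVL7, an enzyme that lengthens fatty acids, gave 6.01 and 6.47 in ORC1B14, against 7.68 and 7.67 in WT, a difference of -1.43 ± 0.23 (adjusted p = 0.0347). ERBIN, a scaffold protein that binds the receptor ERBB2, gave 8.20 and 8.59 in ORC1B14, against 9.83 and 9.47 in WT, a difference of -1.25 ± 0.21 (adjusted p = 0.0384). CDK7, the kinase that activates other cyclin-dependent kinases and takes part in transcription initiation, gave 6.89 and 7.53 in ORC1B14, against 8.39 and 8.40 in WT, a difference of -1.19 ± 0.22 (adjusted p = 0.0464). WT arrays nearly coincided for CDK7 and ELOVL7, and ORC1B14 replicate 1 was the lower of its pair in all 3. GPBP1, a transcription factor, differed by -1.22 (adjusted p = 0.0464), KGD4, a subunit of the oxoglutarate dehydrogenase complex, by -1.07 (adjusted p = 0.0464), and RAD17 has been given above. Under median centring the calls of CDK7, GPBP1, KGD4 and RAD17 were lost. With no filter on dim probe sets those of CDK7, GPBP1 and KGD4 were lost. Without the intensity trend those of CDK7 and GPBP1 were lost. PLK2 was the 1 gene of the stretch called higher. In the other mutant lines, which were set against the same WT arrays, the stretch had medians of -0.01 in ORC1BP32, -0.02 in ORC2B2 and -0.01 in ORC2BP8, and the median of ORC1B14 minus the mean of these lines was -0.77. For PLK2 the other lines differed from WT by 0.59, 1.83 and 2.06 in the same order.

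**Figure D4:**
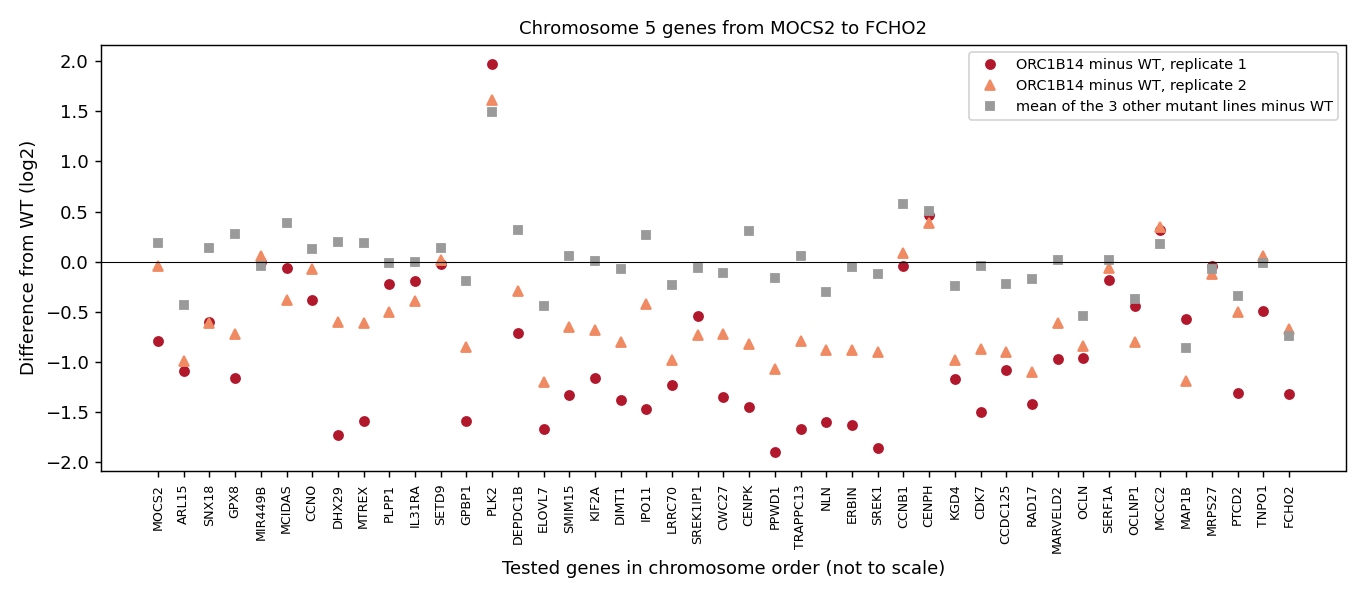
The 45 tested genes from MOCS2 to FCHO2 in chromosome order (horizontal axis, not to scale), with the difference from WT (log2, vertical axis) of ORC1B14 replicate 1 (circles), ORC1B14 replicate 2 (triangles) and the mean of the 3 other mutant lines (squares). Most ORC1B14 values lie below 0, with medians of -1.09 for replicate 1 and -0.67 for replicate 2, PLK2 stands above, and the other lines have medians of -0.01, -0.02 and -0.01.

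ORC1B14 was last compared with the other mutant lines, to see where it differed from them. This comparison uses no WT array as its baseline but shares the ORC1B14 arrays with the one above. Against the mean of ORC1BP32, ORC2B2 and ORC2BP8, 6 of 10797 genes were called in limma, 0.0556% of those tested, with 3 higher and 3 lower. At an unadjusted p under 0.05 there were 679, 320 higher and 359 lower. Without ORC1B14 replicate 1, 0 genes were called and 316 had an unadjusted p under 0.05, and without ORC1B14 replicate 2 there were 4 called higher and 20 lower. Leaving out 1 array of another line gave 2 higher and 1 lower (either WT array), 1 higher and 0 or 1 lower (ORC1BP32), 1 or 4 higher and 2 or 4 lower (ORC2B2), and 3 or 1 higher and 2 or 0 lower (ORC2BP8).

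GLIS3-AS1 showed the largest of these differences, 4.03 ± 0.37 (adjusted p = 0.00375), and lost its call without ORC1B14 replicate 1 only. Against WT it differed by -0.44 in ORC1BP32, -0.25 in ORC2B2 and -0.55 in ORC2BP8. Its level in ORC1B14 was above that of all 8 other arrays. AOAH was higher by 1.38 ± 0.20 (adjusted p = 0.0479), and its call was lost without 9 of the 10 arrays in turn. DHRS3 was higher by 1.35 ± 0.16 (adjusted p = 0.0198), and the other ORC1 line, ORC1BP32, lay 0.72 above WT. Of the genes lower than in the other mutant lines, NETO2 differed by -2.73 ± 0.35 (adjusted p = 0.024). DSC3 differed by -1.79 ± 0.20 (adjusted p = 0.0124), with ORC2B2 the nearest line, -2.50 relative to WT. ERBIN, of the chromosome 5 stretch, differed by -1.20 ± 0.17 (adjusted p = 0.0469). With each of the 10 arrays left out in turn, the call was kept 7 times by DSC3, 5 times by DHRS3, 4 times by NETO2 and 2 times by ERBIN.

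For several of the large differences from WT, the other lines had values of their own against the same WT arrays, which are given side by side because sharing those arrays makes the comparisons dependent. ADGRF1 differed from WT by -2.48 in ORC1B14, by -2.40 in the other ORC1 line and by -2.70 (ORC2B2) and -2.65 (ORC2BP8) in the ORC2 lines. TRIB3 differed by -1.70 in ORC1B14, by -1.99 in the other ORC1 line and by -1.56 and -1.67 in the ORC2 lines in the same order. MCM4 differed by 1.14 in ORC1B14, by 0.91 in the other ORC1 line and by 1.17 and 1.06 in the ORC2 lines. These 3 genes had values of 1 sign in the 4 mutant lines. GRHL2 differed by -1.49 in ORC1B14 and -2.48 in ORC2B2, but by 0.12 in ORC1BP32 and -0.28 in ORC2BP8. S100A14 likewise differed by -2.21 in ORC1B14 and -2.07 in ORC2B2, and by 0.15 in ORC1BP32 and -0.63 in ORC2BP8. ORC1B14 minus the mean of the other lines was -0.61 for GRHL2 and -1.36 for S100A14, and neither was called.

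**Figure D5:**
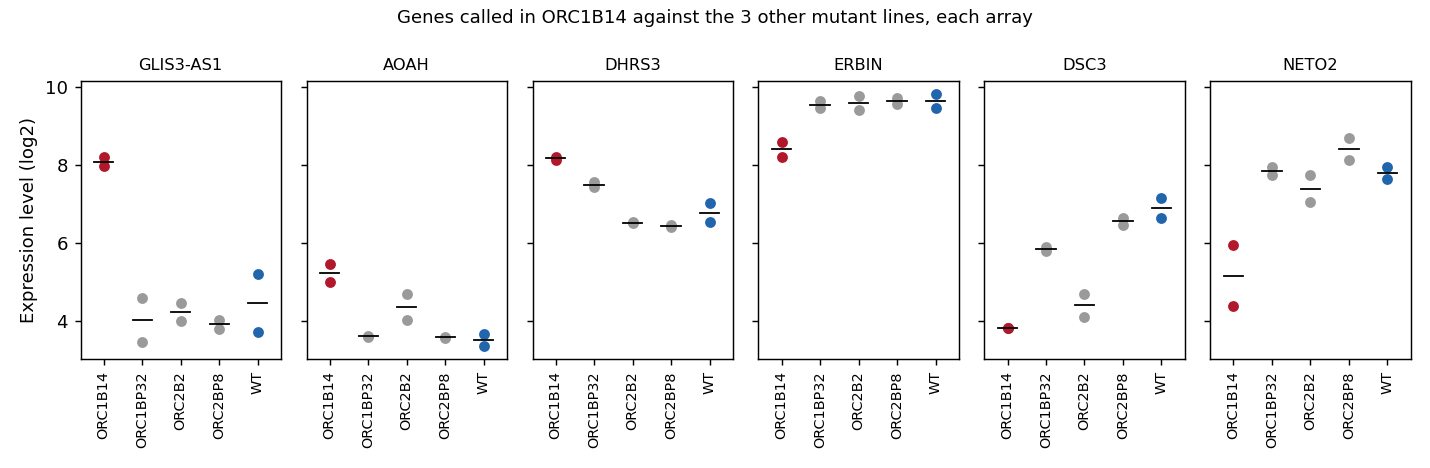
Levels (log2, vertical axis) of the 6 genes called in ORC1B14 against the 3 other mutant lines, on each of the 10 arrays, with a bar at the mean of each line. ORC1B14 is in red at the left, the other mutant lines are in grey and WT is in blue at the right, and in each gene both ORC1B14 arrays lie outside the range of the other 8 arrays.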

How the data were processed

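The deposited table holds log2 expression values of 53617 probe sets on 10 arrays. Per the submitters' processing notes the arrays were processed with Affymetrix Expression Console, with no version; how the authors normalized the arrays, and with which annotation and build, is not given in the sources used here. The log base is in no label: the deposited values were read as log2 from their range, and fold changes rest on that. Array medians were 3.94 to 3.96 on the arrays of replicate 1 and 3.87 to 3.89 on those of replicate 2, and 0 pairs of arrays held identical values.

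Probe sets were named through the platform's annotation: 16098 had 1 symbol, 0 had several and 37519 were unnamed here, and all 16098 were found by gene ID in RefSeq's gene table (GRCh38.p14), where 0 needed a newer symbol. A probe set was kept at or above the array median on at least 2 of the 10 arrays, which left 11554 probe sets of 10797 genes, and the probe set with the highest mean stood for its gene. Differences were tested with limma 3.58.1 in R 4.3.3 (lmFit on 5 line means, eBayes with an intensity trend, no covariate, 5 residual and 5.83 prior degrees of freedom), so all 10 arrays shared 1 estimate of the spread. P-values are two-sided and adjusted by Benjamini-Hochberg over all genes tested, with a threshold of 0.05. The scripts were tested on simulated data.

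The comparison, the 29 gene lists (641 genes, of which 412 were named), the chromosome 5 stretch and the genes named were chosen with earlier results of these data known. Named are the 12 highest and 12 lowest called genes, called list members and otherwise the list members with the lowest unadjusted p (up to 2), up to 6 genes in each direction against the other mutant lines, called members of the stretch, ORC1 to ORC6, and cell type markers; a few others are given as further values. Lists are described by counts and medians, with no set test. The alternatives were other normalizations, filters, probe set rules and variance models, a replicate block, and each array left out. Replicate numbers 1 and 2 occur in each line. Over the 10 pairs of lines the deviations of same-numbered arrays correlated at 0.0812 to 0.568 (0.35 for ORC1B14 and WT). All of these were positive, so same-numbered arrays shared part of their deviation, but the numbers were not treated as pairs. Counts of called genes, also those of 0 in a list, hold for the model without a replicate block, and more genes were called with it.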

Additional observations from a re-analysis of the deposited data

Results flagged for a closer look

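In 6 genes the effect in ORC1B14 differed from the mean effect in the 3 other mutant lines by a test of that difference itself (limma, adjusted over all genes tested). ORC1B14 minus the mean of the other mutant lines was 4.03 for GLIS3-AS1 (adjusted p = 0.00375), 1.38 for AOAH (adjusted p = 0.0479) and 1.35 for DHRS3 (adjusted p = 0.0198). It was -2.73 for NETO2 (adjusted p = 0.024), -1.79 for DSC3 (adjusted p = 0.0124) and -1.20 for ERBIN (adjusted p = 0.0469). Both ORC1B14 arrays pointed the same way in each of the 6 genes, but genes chosen by this test would mostly do so, and no support is drawn from it. These calls depended on single arrays, as given above.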

How the results depend on the processing

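Of the called genes, 62 of 63 kept their call under quantile normalization (S100A14 lost it), 32 under median centring, 27 with no filter on dim probe sets, all 53 still tested under the strict filter, 61 with the mean over probe sets and 48 without the intensity trend. Genes called against WT numbered 37 higher under quantile normalization, 11 higher and 21 lower under median centring, and 7 higher and 20 lower with no filter. Against the other mutant lines there were 8 lower under quantile normalization, and 1 higher and 1 lower under the strict filter. Under quantile normalization the list medians moved to 0.71 (fork), -0.11 (tight junction), 0.29 (glycolysis) and 0.17 (intestinal), and under median centring the glycolysis median was 0.23, the same after rounding. With the replicate number as a replicate block, which the design does not establish as pairing, 225 genes were higher and 271 lower than in WT (all 63 kept), and 10 higher and 32 lower than in the other mutant lines. With a replicate block on the ORC1B14 and WT arrays only, 237 were higher and 419 lower. Leaving out each array in turn gave 0 to 24 genes higher and 1 to 58 lower than in WT, and 0 to 4 higher and 0 to 20 lower than in the other mutant lines. THY1, which was not called, changed sign, at 0.24 without WT replicate 1 against -0.42 without WT replicate 2. The causes of these shifts were not tested. With 2 arrays per line, and probe sets below the array median in 1 line, small differences and the sizes of large ones cannot be resolved.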
